A study of Mus musculus with 36 samples.

Results

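The 9 genes described here are Kcnj8, Cdc42ep1, Cdk18, Gprc5a, Mcrip2, Cmah, Anxa8, Ptpn5 and Cc2d2b, which encode no receptor of the Klr family and were picked because their levels were seen to differ between TN and TP natural killer (NK) cells of mice. Each was found by its symbol, and all 9 were present in the table of sorted subsets, which lists 32940 genes, and in the other 3 tables of 56923 genes. They were chosen by their measured levels in TN and TP cells. Those values are therefore given as a description without a test, and tests were kept for SP cells and for the experiments that the choice did not use.

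RNA was sequenced from 36 libraries in 12 groups of 3 biological replicates. The first 18 libraries came from mature splenic NK cells (CD27-CD11b+) of wild-type C57BL/6 mice (WT, B2m+/+) or of B2m-/- mice (KO), sorted into TP cells positive for Ly49C, Ly49I and NKG2A, SP cells with Ly49I but neither of the others, and TN cells negative for each. Of the remaining WT libraries, 6 came from NK cells purified from splenocytes after 22 hours with ionomycin, which lets calcium into cells, or with its vehicle. The next 9 came from NK cells after 48 hours in medium or on plates coated with antibodies, either anti-NKp46 plus anti-NKG2D or anti-NKp46 plus anti-DNAM-1. The last 3 held CD27-CD11b+ NK cells taken from tumours of WT mice, 10 days after subcutaneous injection of B2m-/- MC38 cells, a mouse colon carcinoma line. The B2m deletion acts in the whole animal, so KO NK cells and their surroundings both lack B2m. Ages and sexes are not given in the sources used here.

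Ly49C, Ly49I and NKG2A are inhibitory receptors that recognise MHC class I molecules on other cells, and B2m is the light chain that most class I molecules need to reach the cell surface. NK cells that carry such receptors in a host with the matching class I are known to respond more strongly to activation, a state called educated or licensed, while cells without them are hyporesponsive. The 9 genes have no single pathway in common. Kcnj8 encodes Kir6.1, the pore of an ATP-sensitive potassium channel, and Cmah the hydroxylase that turns the sialic acid Neu5Ac into Neu5Gc. Cdc42ep1 encodes an effector of the small GTPase CDC42 that shapes actin and septin filaments, Cdk18 a kinase of the PCTAIRE family, Gprc5a an orphan G protein-coupled receptor induced by retinoic acid, and Mcrip2 a relative of MCRIP1, a regulator of the corepressor CtBP. Anxa8 encodes an annexin, which binds membranes in the presence of calcium, Ptpn5 the tyrosine phosphatase STEP, which acts on MAP kinases and on Fyn, and Cc2d2b a coiled-coil and C2 domain protein related to the cilium protein Cc2d2a.

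Levels are in TPM, for which the reads of a gene are divided by its length and each library is scaled to a fixed total. Sequencing depth is unknown from TPM. The subset libraries held from 12290 to 14501 genes above 0. The sort and the genotype were visible in the libraries. B2m stood between 2977 and 3312 TPM in the means of the WT subsets and between 94 and 113 TPM in those of the KO subsets. In WT cells the mean of Klrc1, which encodes NKG2A, was 864 TPM in TP cells and 22 to 25 TPM in SP and TN cells. The summed level of 11 NK cell markers ran from 20562 to 24154 TPM across the 18 libraries. Summed TPM of 9 neutrophil markers were 67.0, 114 and 232 in the 3 KO TP libraries and at most 5.85 in any other library of this table, with all 9 at 0 in WT TP cells. B and plasma cell markers summed to 406 to 691 TPM in KO TP cells and to 168 to 339 TPM elsewhere. The part that this RNA plays in the KO values of the 9 genes was not tested.

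To show what lies in front of genes that stood high in opposite subsets, the 250 bases before the RefSeq start are given for 2 genes high in TP cells, Kcnj8 and Cdc42ep1, and for 2 high in TN cells, Cmah (the first of 2 listed starts) and Anxa8. The sequences are from RefSeq on build GRCm38.p6, read 5′ to 3′ along the gene's strand, and the submitters' processing notes name GRCm39, so the positions are not those of the deposited values. Capitals mark a match to any of 4 motifs searched on both strands over 300 bases (250 before and 50 after the start), namely RUNX (TGTGGT), T-box (GGTGTGA), AP-1 (TGANTCA) and ETS (CCGGAA).
Kcnj8, chr6:142571615-142571864, minus strand: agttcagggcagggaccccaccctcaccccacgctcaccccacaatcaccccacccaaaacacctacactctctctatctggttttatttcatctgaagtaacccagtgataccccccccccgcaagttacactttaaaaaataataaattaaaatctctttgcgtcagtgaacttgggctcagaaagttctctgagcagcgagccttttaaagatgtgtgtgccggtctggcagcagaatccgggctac
Cdc42ep1, chr15:78842397-78842646, plus strand: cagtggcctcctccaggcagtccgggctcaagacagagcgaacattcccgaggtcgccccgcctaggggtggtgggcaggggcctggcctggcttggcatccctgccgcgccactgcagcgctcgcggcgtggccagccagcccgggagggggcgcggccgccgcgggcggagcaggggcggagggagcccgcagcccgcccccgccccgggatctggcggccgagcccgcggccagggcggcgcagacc
Cmah, chr13:24327154-24327403, plus strand: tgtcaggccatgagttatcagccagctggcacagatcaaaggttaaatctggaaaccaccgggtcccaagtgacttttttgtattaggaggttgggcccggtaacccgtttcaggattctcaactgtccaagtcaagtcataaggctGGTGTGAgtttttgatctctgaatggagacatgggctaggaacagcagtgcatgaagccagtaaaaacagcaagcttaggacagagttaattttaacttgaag
Anxa8, chr14:34085729-34085978, plus strand: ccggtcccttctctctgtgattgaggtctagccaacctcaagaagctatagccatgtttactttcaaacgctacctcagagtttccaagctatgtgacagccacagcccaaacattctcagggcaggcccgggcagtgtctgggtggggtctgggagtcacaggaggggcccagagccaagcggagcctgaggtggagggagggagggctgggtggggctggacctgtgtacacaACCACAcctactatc

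Promoters were listed for 8 of the 9 genes, with 11 starts in all, and Gprc5a had no entry. The Cmah window held a T-box match with its first base 103 bases before the start, a motif found in 3.98% of 32851 such windows. The Anxa8 window held a RUNX match on the minus strand whose first base lay 15 bases before the start, and RUNX matches were also found for Cdk18 and for the second listed start of Ptpn5, against 16.8% of all windows. No AP-1 match (7.81% of all windows) and no ETS match (14.9%) was found in the 11 windows. The windows of Kcnj8, Cdc42ep1, Mcrip2 and Cc2d2b held none of the 4 letter strings. GC content of the Cdc42ep1 window was 80.0% against a median of 52.7% over all windows, and the other 3 printed genes lay between 47.3% and 57.3%. These matches describe letters only.

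Of the 9 genes, 5 were lower and 4 were higher in TN than in TP cells of WT mice. Kcnj8, Cdc42ep1, Cdk18, Gprc5a and Mcrip2 formed the lower group, and Cmah, Anxa8, Ptpn5 and Cc2d2b the higher one. The 3 TP and 3 TN libraries did not overlap for any of the 9 in WT cells, which the choice of the genes could bring about, and they did not overlap for 6 of 9 in KO cells. The share of all genes without such overlap was not computed. Nothing is therefore read from these or the later counts of separate ranges. Over all 12018 genes tested in this table, 1.31% were called in the WT comparison and 0.524% in the KO comparison, and nothing is read from the 9 genes against these shares. A gene was tested where its mean over the table was at least 1 TPM, and called at an adjusted p under 0.05. All 9 genes passed that minimum in the subset table. Cdc42ep1, Cdk18, Gprc5a and Mcrip2 averaged under 1 TPM in WT TN cells, and Cc2d2b did so in WT SP cells. Kcnj8 stood above 83.5% and Cmah above 77.2% of tested genes in mean level, while the other 7 stood above 12.3% to 32.5%.

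**Figure D1:**
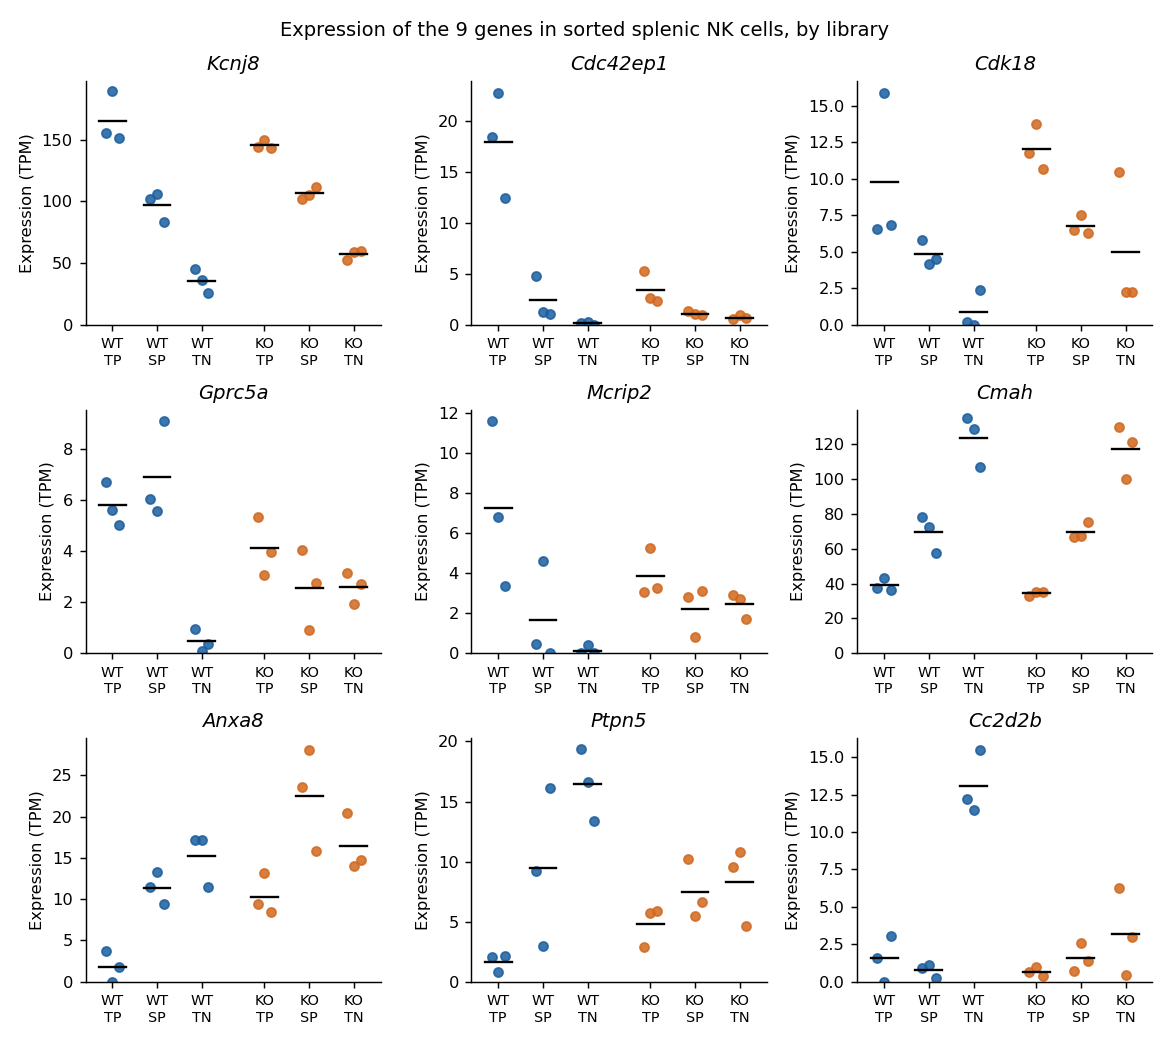
Expression in TPM (y axis, linear, a separate scale for each gene) in the 18 libraries of sorted splenic NK cells. Each point is 1 library, black bars are means of 3, blue is WT and orange is B2m KO. Kcnj8 and Cmah step through TP, SP and TN cells in opposite directions in both genotypes, while the lower genes overlap more between KO groups.

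Kcnj8 (ENSMUSG00000030247) was the most abundant of the genes that were lower in TN cells. Its levels in WT libraries were 156, 189.5 and 152 TPM in TP cells, 102, 106 and 83.1 TPM in SP cells and 45.0, 36.6 and 25.8 TPM in TN cells. In KO libraries they were 144, 150.2 and 143 TPM in TP cells, 102, 105 and 112 TPM in SP cells and 52.8, 59.4 and 59.8 TPM in TN cells. The 3 subsets thus held separate ranges in each genotype. By mean the order was WT TP (166 ± 20.8, SD, n = 3), KO TP (146 ± 3.69), KO SP (106 ± 5.09), WT SP (97.1 ± 12.2), KO TN (57.3 ± 3.90) and WT TN (35.8 ± 9.64 TPM). In this order the KO SP and WT SP groups overlapped, and so did no other neighbours, the lowest WT TP library (152) lying just above the highest KO TP library (150.2). On the log2(TPM + 1) scale, TN minus TP was -2.21 (SE 0.158) in WT and -1.34 in KO cells. In bulk samples such as these, fewer cells that express a gene and less RNA per cell cannot be told apart.

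The known partners of the Kcnj8 channel were nearly absent. Abcc8, which encodes the sulfonylurea receptor SUR1, was at 0 in all 18 libraries. Abcc9, which encodes SUR2 and is the next gene to Kcnj8 in RefSeq order, reached at most 0.07 TPM. Kcnj11, which encodes the related pore Kir6.2, had group means of at most 0.48 TPM. Among the 7 other potassium channel genes tested, Kcnk5, a two-pore channel gene, was called higher in WT TN than TP cells, at 31.8, 25.8 and 49.4 against 20.5, 16.6 and 16.3 TPM (limma, log2 difference 0.92, SE 0.209, adjusted p = 0.036). Its groups did not overlap, but it was no longer called in 5 of 6 fits that left out 1 library. The call was also lost when only these 2 groups were fitted (limma, adjusted p = 0.404).

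Cmah (ENSMUSG00000016756) ran the opposite way. WT libraries held 37.3, 43.3 and 36.4 TPM in TP cells, 78.0, 72.7 and 57.5 TPM in SP cells and 135, 129 and 107 TPM in TN cells. KO libraries held 32.7, 35.3 and 34.9 TPM in TP cells, 66.4, 67.1 and 75.5 TPM in SP cells and 130, 99.8 and 121 TPM in TN cells. All 3 subsets were again separate within each genotype, and WT and KO overlapped in SP and in TN cells. The log2 difference TN minus TP was 1.64 (SE 0.140) in WT and 1.73 in KO cells, which made Cmah the only one of the 9 whose difference was not smaller in KO cells. SP cells stood 49.4% of the way from TP to TN on the log2 scale in WT and 57.7% in KO cells, against 34.7% and 33.8% for Kcnj8.

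Other genes of the sialic acid pathway gave no call between TN and TP cells. None of the 17 tested was called in WT or in KO cells with limma, while 3 in each had an unadjusted p under 0.05. Cmas, which makes the CMP-Neu5Ac that the Cmah enzyme uses, had means between 81.3 and 96.0 TPM in the 6 groups. The median log2 difference of the 17 was -0.18 in WT and 0.03 in KO cells, against -0.01 and -0.03 over all tested genes.

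**Figure D2:**
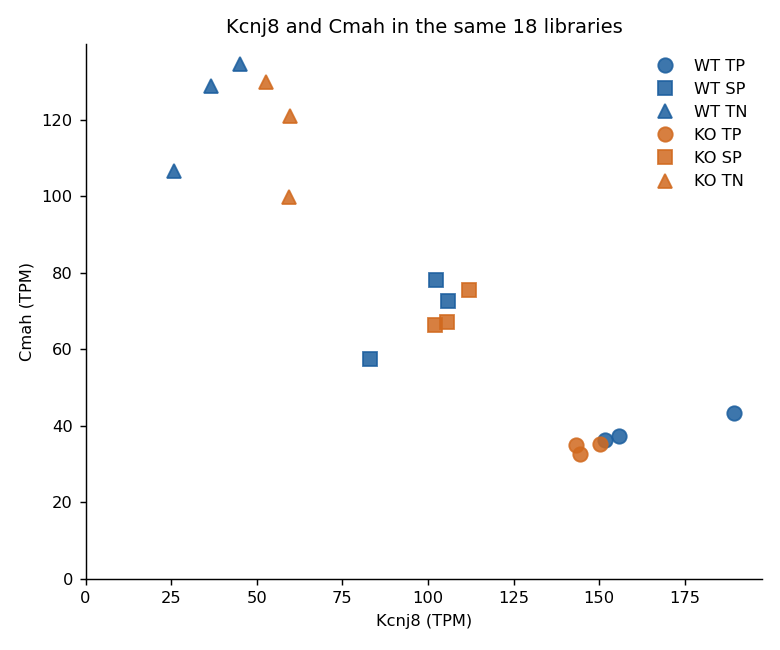
Kcnj8 (x axis) against Cmah (y axis), both in TPM on linear axes, in the same 18 libraries; each symbol is 1 library, its shape gives the subset and its colour the genotype. TP libraries sit at the lower right, SP in the middle and TN at the upper left, with WT and KO side by side.

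Over the 18 libraries the log2 values of Kcnj8 and Cmah had a Pearson r of -0.876. The points share their sort groups, and each pair of values comes from 1 library, so r describes the group means above all. Within the WT groups the library numbered 3 was the lowest for both genes in each subset. In KO TP cells the lowest libraries of the 2 genes differed.

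Cdc42ep1 (ENSMUSG00000049521) had the widest WT range among the genes of low level. It stood at 18.5, 22.8 and 12.4 TPM in WT TP cells, at 4.83, 1.29 and 1.07 TPM in SP cells and at 0.21, 0.24 and 0 TPM in TN cells. KO TP libraries held 5.29, 2.60 and 2.37 TPM, all under every WT TP library. KO SP libraries held 0.93 to 1.32 TPM and KO TN libraries 0.53 to 0.94 TPM, so those subsets overlapped. TN minus TP was -4.01 (SE 0.431) on the log2 scale in WT and -1.32 in KO cells. Lgals2, a neighbouring gene, overlaps the 3′ end of this gene on the opposite strand in the GENCODE vM21 annotation. Lgals2 was listed at no more than 1.24 TPM in this table. Since no strand setting is given in the sources used here, reads of such pairs cannot be told apart. Genes annotated on the opposite strand also overlap Cmah, Cdk18, Anxa8, Ptpn5 and Mcrip2. Of the 20 other tested genes of CDC42 and its effectors, none was called between TN and TP cells in either genotype, with 0 in WT and 1 in KO cells at an unadjusted p under 0.05.

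Cdk18 (ENSMUSG00000026437) stood at 6.57, 15.9 and 6.82 TPM in WT TP cells and at 0.17, 0 and 2.36 TPM in WT TN cells, with SP cells between them at 5.79, 4.19 and 4.51 TPM. KO TP cells held 11.8, 13.7 and 10.7 TPM. KO TN cells held 10.5, 2.23 and 2.24 TPM, so 1 of 3 KO TN libraries reached nearly the lowest KO TP value. None of 7 related PCTAIRE and PFTAIRE kinase genes was called in either genotype, and 0 had an unadjusted p under 0.05.

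Gprc5a (ENSMUSG00000046733) differed from the other lower genes in its SP level. WT SP libraries, at 6.05, 5.57 and 9.11 TPM, lay within or above the TP range of 5.05 to 6.71 TPM, while WT TN libraries held 0.96, 0.10 and 0.37 TPM. In KO cells the TP libraries held 5.35, 3.06 and 3.99 TPM, the SP libraries 4.04, 0.91 and 2.76 TPM and the TN libraries 3.13, 1.94 and 2.72 TPM. All 3 KO subsets overlapped. The related genes Gprc5c and Gprc5d were at 0 in this table. Of 4 GPRC5 and retinoid receptor genes tested, 0 were called and 0 had an unadjusted p under 0.05 in either genotype.

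Mcrip2 (ENSMUSG00000025732) was the lowest of the 9 by mean over the table. WT TP libraries held 11.6, 6.83 and 3.38 TPM, SP libraries 0.44, 4.61 and 0 TPM and TN libraries 0, 0.40 and 0 TPM. KO TP cells held 3.05 to 5.24 TPM and KO TN cells 1.70 to 2.90 TPM, all above the WT TN libraries. The log2 difference TN minus TP was -2.76 (SE 0.579) in WT and -0.49 in KO cells. None of 8 tested partners of MCRIP proteins was called in either genotype, and 1 in each had an unadjusted p under 0.05.

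Among the genes higher in TN cells, Anxa8 (ENSMUSG00000021950) showed a TP level that differed by genotype. WT TP libraries held 3.72, 0 and 1.73 TPM, WT SP libraries 11.4, 13.3 and 9.47 TPM and WT TN libraries 17.2, 17.2 and 11.4 TPM. KO TP libraries held 9.40, 13.1 and 8.39 TPM, all above the WT TP libraries. KO SP libraries, at 23.6, 28.1 and 15.8 TPM, reached past the KO TN libraries at 20.4, 14.0 and 14.7 TPM, so that the KO SP mean of 22.5 ± 6.20 TPM was the highest of the 6 groups. The log2 difference TN minus TP was 2.77 (SE 0.417) in WT and 0.63 in KO cells.

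Partners of the annexins gave the clearest calls among related genes, and in the direction opposite to Anxa8. Of 13 annexin and S100 genes tested, 3 were called in WT cells with limma, all of them lower in TN cells, and 8 had an unadjusted p under 0.05. Over all tested genes 1.31% were called and 12.5% had an unadjusted p under 0.05. S100a6, a calcium-binding partner of annexins, stood at 229, 176 and 187 TPM in TN and at 502, 628 and 557 TPM in TP cells (log2 difference -1.51, SE 0.167, adjusted p = 4.38e-05). S100a4, another calcium-binding protein of that family, stood at 14.7, 44.9 and 26.7 TPM in TN and at 107, 113 and 124 TPM in TP cells (-2.09, SE 0.265, adjusted p = 0.000199), a call lost when only these 2 groups were fitted (adjusted p = 0.212). Anxa1 stood at 159 to 171 TPM in TN and at 247 to 310 TPM in TP cells (-0.74, adjusted p = 0.0333), and this call was lost in all 6 fits without 1 library. It was also lost when only these 2 groups were fitted (limma, adjusted p = 0.0991). In KO cells S100a4 alone was called, at 20.2, 21.2 and 17.2 TPM in TN against 51.5, 63.5 and 57.3 TPM in TP cells (-1.51, adjusted p = 0.00931), a call lost without KO TN replicate 3 or without KO TP replicate 2 or 3. The neutrophil markers named above were at 0 in WT TP cells and above 0 in these KO TP cells, and their part in the KO value was not tested. Anxa2, an abundant annexin, had means of 1018 to 1059 TPM in all 6 groups. Over all 9 lists of related genes, 5 of 94 tested were called in WT cells (2 higher and 3 lower, 18 at an unadjusted p under 0.05) and 1 in KO cells (11 at an unadjusted p under 0.05, against 6.43% of all tested genes). Their median log2 differences were -0.09 and -0.04.

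Ptpn5 (ENSMUSG00000030854) stood at 2.08, 0.79 and 2.16 TPM in WT TP cells and at 19.4, 16.6 and 13.4 TPM in WT TN cells. WT SP libraries spread widely between them, at 9.23, 2.97 and 16.1 TPM. In KO cells the ranges overlapped, with 2.87 to 5.85 TPM in TP, 5.48 to 10.2 TPM in SP and 4.60 to 10.8 TPM in TN cells. Fyn, a kinase known as a target of this phosphatase, was called higher in WT TN cells by 0.27 on the log2 scale (SE 0.0608, adjusted p = 0.0347), at 700 to 753 against 570 to 635 TPM, and lost the call in 4 of 6 fits without 1 library. Fyn also lost its call when only the WT TN and TP groups were fitted (limma, adjusted p = 0.288). Ptpn7, a phosphatase of the same family, was abundant, with group means from 113 to 163 TPM, and was not called.

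Cc2d2b (ENSMUSG00000108929) was high in WT TN cells, at 12.2, 11.5 and 15.5 TPM, and at most 3.07 TPM in any WT TP or SP library. KO TN libraries held 6.23, 0.43 and 2.97 TPM, overlapping KO TP cells at 0.38 to 0.98 TPM and KO SP cells at 0.75 to 2.58 TPM. All 3 KO TN libraries lay under all 3 WT TN libraries. The log2 difference TN minus TP was 2.67 (SE 0.581) in WT and 1.06 in KO cells. Of 8 tested genes of CC2D proteins and of the transition zone at the base of cilia, 0 were called and 0 had an unadjusted p under 0.05 in either genotype.

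**Figure D3:**
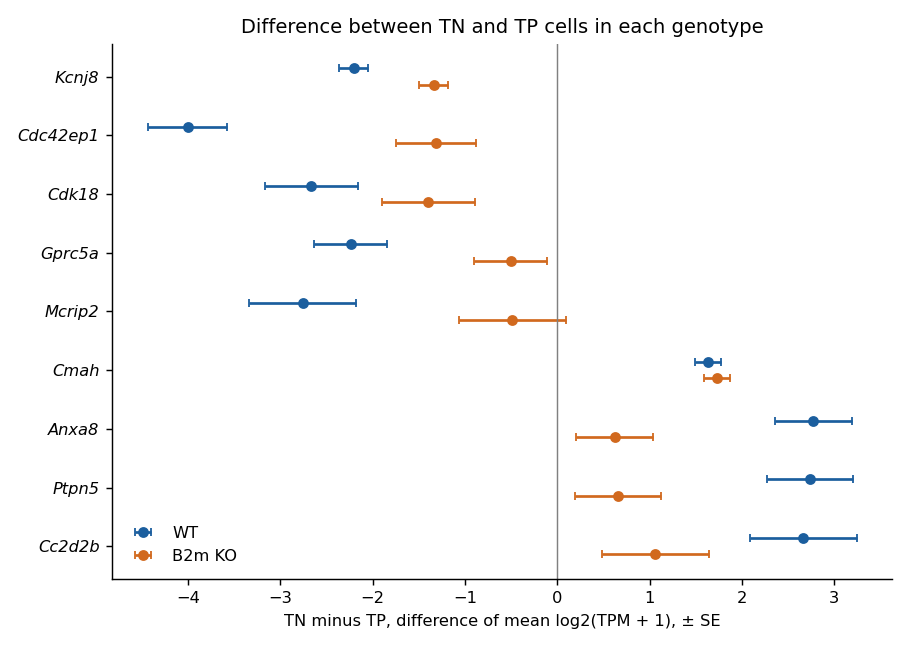
Difference between TN and TP cells in mean log2(TPM + 1) (x axis) for each gene, in WT (blue) and B2m KO (orange) cells; bars are the SE of the fit and the line at 0 marks no difference. Signs match in both genotypes for all 9 genes, and the KO point lies nearer to 0 for 8 of 9, all but Cmah. The choice of the genes could bring this about.

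The sign of the difference was the same in WT and KO cells for 9 of 9 genes, and its size was smaller in KO cells for 8 of 9. These counts use the libraries that chose the genes, so the choice could bring them about, and they carry no test. The matching shares over all genes were not computed. Which KO subset differed from its WT counterpart varied between genes. In TN cells, Kcnj8, Cdc42ep1, Gprc5a and Mcrip2 were higher and Ptpn5 and Cc2d2b lower in KO than in WT libraries without overlap, and Cdk18 was higher by mean with overlap (4.98 against 0.84 TPM). In TP cells, Anxa8 and Ptpn5 were higher and Kcnj8, Cmah and Cdc42ep1 lower in KO than in WT libraries without overlap. The TP differences of Kcnj8 (-0.17, SE 0.158) and Cmah (-0.18, SE 0.140) were small on the log2 scale. Those of Cdc42ep1 (-2.12, SE 0.431), Ptpn5 (1.115, SE 0.465) and Anxa8 (2.25, SE 0.417) were larger. In TN cells the difference of Cdc42ep1 was 0.57 (SE 0.431). Kcnj8, Cdc42ep1 and Ptpn5 thus had separate WT and KO ranges in both subsets, Ptpn5 with TP means of 4.80 in KO and 1.68 TPM in WT cells. The mean of SP cells lay between TP and TN for 7 of 9 genes in WT and 6 of 9 in KO cells. All 3 subsets held separate ranges for 4 genes in WT cells (Kcnj8, Cmah, Cdc42ep1 and Cdk18) and for Kcnj8 and Cmah, 2 genes, in KO cells. Other cell markers moved with the subsets as well. The summed level of 9 markers of immature NK cells and type 1 innate lymphoid cells ran from 354 to 414 TPM in TN libraries of both genotypes and from 225 to 334 TPM in TP libraries. Cd27 and Tcf7, each higher in TN than in TP libraries of both genotypes, made up most of it. In WT cells Kit, Il7r, Cxcr6, Itga1 and Tmem176b were lower in TN than in TP libraries. Itga1 stood at 0 to 1.2 TPM in WT TN and at 3.24 to 4.74 TPM in WT TP libraries. A list of 8 dendritic cell markers summed to 471 to 572 TPM in WT TP, 583 to 718 in WT SP and 864 to 888 TPM in WT TN cells, and to 359 to 416, 504 to 536 and 596 to 703 TPM in the same subsets of KO cells. Itgax, which NK cells also express, made up most of that sum. Of the 8 genes, Clec9a was at 0 in all 18 libraries, and the others were above 0 in at least 1 WT TP library. The number at 0 in all 3 libraries of a group ran from 1 in WT TP to 4 in KO TN cells. B and plasma cell markers, led by Ighm, summed to 282 to 339 TPM in WT TN and to 168 to 182 TPM in WT TP cells. In KO cells the order was the opposite, with 216 to 237 TPM in TN and 406 to 691 TPM in TP cells. The part of these lists in the values of the 9 genes was not tested.

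Genes with the most similar pattern were found by Pearson r of log2(TPM + 1) over the same 18 libraries, which share the sort groups. For Kcnj8 they were Rtn4rl1 (r = 0.955) and Gpc1 (0.943), both highest in TP and lowest in TN cells. For Cmah they were Klra4 (0.941) and Klra13-ps (0.934), and for Anxa8 Klra6 (0.864) and Klra7 (0.859), all of the Ly49 family, whose members can share reads. Cdc42ep1 came closest to C1qtnf6 and Xdh (both 0.896), Ptpn5 to Mecr (0.924) and Dgkh (0.86), and Cdk18 to Brip1os (0.887) and Cutc (0.863). The closest genes to Gprc5a were Abcg3 (0.819) and Rap2a (0.788), to Mcrip2 H2-T23 (0.799) and Septin11 (0.796), and to Cc2d2b Pglyrp1 (0.824) and Zfp512 (0.804).

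SP libraries were not used to choose the genes, and comparing KO with WT SP cells asks whether the 9 genes depend on B2m in cells that carry Ly49I alone of the 3 sorted receptors. None of the 9 was called with limma, where 1.35% of 12018 genes were. An unadjusted p under 0.05 was found for 2 of the 9 and for 11.7% of all tested genes. Gprc5a was lower in KO SP cells, 4.04, 0.91 and 2.76 against 6.05, 5.57 and 9.11 TPM, without overlap (log2 difference -1.23, SE 0.393, 95% interval -2.06 to -0.40, unadjusted p = 0.00618, adjusted p = 0.166). Anxa8 was higher, 23.6, 28.1 and 15.8 against 11.4, 13.3 and 9.47 TPM, also without overlap (0.90, SE 0.417, 95% interval 0.0183 to 1.78, unadjusted p = 0.0459, adjusted p = 0.415). Neither difference passed the threshold. The intervals of Kcnj8 (0.14, -0.20 to 0.47) and Cmah (0.02, -0.28 to 0.31) were narrow, and those of Cdc42ep1, Cdk18, Ptpn5, Mcrip2 and Cc2d2b spanned more than 1 log2 unit. The median log2 difference of the 9 was 0.14, against 0.03 over all tested genes.

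Related genes gave 3 calls of 94 tested in KO against WT SP cells, all lower in KO cells. Kcnq5, a voltage-gated potassium channel gene, stood at 3.66, 5.20 and 3.19 against 12.1, 15.5 and 13.6 TPM (log2 difference -1.57, SE 0.274, adjusted p = 0.00498), and was called in all 6 fits without 1 library but not when only the 2 groups were fitted (adjusted p = 0.0895). Anxa1 stood at 118, 123 and 165 against 253, 257 and 218 TPM (-0.85, adjusted p = 0.0108). The sialyltransferase gene St3gal1 stood at 79.0, 78.3 and 87.4 against 123, 124 and 127 TPM (-0.61, adjusted p = 0.0139). Anxa1 lost its call without KO SP replicate 1 or 2 or WT SP replicate 2, and when only the 2 groups were fitted (limma, adjusted p = 0.114). St3gal1 lost its call without KO SP replicate 1 or 2. The KO means were also lower outside SP cells. Kcnq5 averaged 3.30 in KO against 12.0 TPM in WT TP cells, and 2.74 against 12.0 TPM in TN cells. Anxa1 averaged 147 against 274 and 117 against 163 TPM, and St3gal1 82.1 against 110 and 84.2 against 93.95 TPM. In all, 14 of the 94 had an unadjusted p under 0.05.

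**Figure D4:**
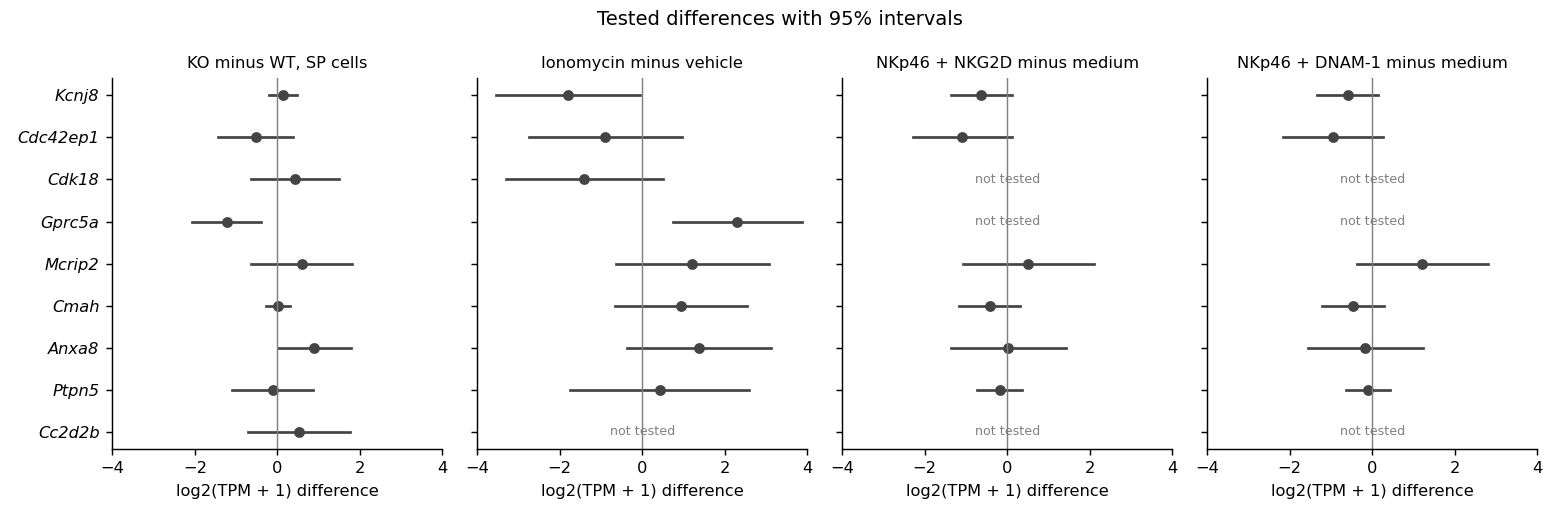
Tested differences in mean log2(TPM + 1) (x axis) for each gene, in 4 panels: KO minus WT in SP cells, ionomycin minus vehicle, and each antibody pair minus medium. Points are the limma estimates and lines their 95% intervals, before any adjustment for the number of genes; genes under the minimum level are marked as not tested. Intervals of the ionomycin panel are wide, the widest being that of Ptpn5, from -1.74 to 2.59. In that panel Gprc5a, Anxa8 and Mcrip2 passed the minimum only through ionomycin libraries, and Cdc42ep1 and Cdk18 only through vehicle libraries.

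The ionomycin experiment asks whether sustained calcium entry moves these genes. Of the 9, Cc2d2b was under 1 TPM on average and was not tested. None of the other 8 was called with limma, where 2.91% of 14372 genes were. An unadjusted p under 0.05 was found for Kcnj8 and Gprc5a, and for 15.1% of all tested genes. Gprc5a, Anxa8 and Mcrip2 averaged under 1 TPM with vehicle, and Cdc42ep1 and Cdk18 with ionomycin. Each of these passed the minimum only through the group where it was higher. Nothing is read from their p-values or from a count that includes them. Gprc5a was listed at 0, 1.29 and 0 TPM in vehicle libraries and 8.05, 5.64 and 3.62 TPM in ionomycin libraries (log2 difference 2.31, SE 0.688). Kcnj8 was at 7.09, 25.9 and 60.9 TPM in vehicle libraries and 2.56, 8.12 and 8.75 TPM in ionomycin libraries (-1.80, SE 0.765, unadjusted p = 0.0439, adjusted p = 0.314). The vehicle libraries of Kcnj8 spread widely, and the lowest of them lay inside the ionomycin range.

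Values of the remaining genes were low or scattered. Cmah stood at 2.52, 11.2 and 26.7 TPM in vehicle libraries and 15.8, 25.3 and 17.7 TPM in ionomycin libraries. Cdk18 was at 1.25, 0.27 and 5.44 TPM with vehicle and listed at 0 in all 3 ionomycin libraries. Ptpn5 stood at 8.65, 10.8 and 0 TPM in vehicle libraries and 4.77, 3.86 and 8.83 TPM in ionomycin libraries, and its sign turned without the library listed at 0 (log2 difference 0.43 with all libraries and -0.71 without vehicle replicate 3). Anxa8, Mcrip2 and Cdc42ep1 did not exceed 5.01 TPM in any library of this table. The third vehicle library and the third ionomycin library also held neutrophil marker RNA, 409 and 126 TPM in sum against at most 2.19 TPM in the other 4. The 11 NK cell markers summed to 10371 to 17770 TPM with vehicle and to 7163 to 9277 TPM with ionomycin. The part of these shifts in the values was not tested.

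Of 98 related genes tested, 10 were called with ionomycin, 3 higher and 7 lower, and all 10 calls were lost without any 1 ionomycin library or without vehicle replicate 2. Kcnk5 stood at 85.9, 94.4 and 93.4 TPM with ionomycin and at 5.96, 10.8 and 18.2 TPM with vehicle (log2 difference 2.99, SE 0.396, adjusted p = 0.00794). Kcnq5 stood at 69.1, 86.9 and 73.5 against 22.3, 19.6 and 24.7 TPM (1.74, adjusted p = 0.0131). Both encode potassium channels, and they were the only 2 called of the 6 other channel genes tested. Lower with ionomycin were S100a4, listed at 0, 0 and 1.62 against 10.4 to 26.9 TPM (-3.75, adjusted p = 0.0223), and Anxa1, at 21.2 to 26.6 against 92.9 to 106 TPM (-1.94, adjusted p = 0.00716). Ptpn7 was at 32.2 to 42.8 against 93.3 to 118 TPM (-1.42, adjusted p = 0.0217). S100a4 lost its call in all 6 fits without 1 library.

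The antibody experiment asks whether 48 hours of signalling through activating receptors moves the 9 genes. The group in the sample title and that in the column name differed for 6 of 9 libraries, and the column names were followed. Each title group mixes libraries of all column-name groups. Values under the title groups therefore do not measure how stable a difference between column-name groups is. Cdk18, Gprc5a and Cc2d2b were under the minimum level. None of the 6 others was called with limma for NKp46 with NKG2D, where 0.431% of 13689 genes were, for NKp46 with DNAM-1, where 0.782% were, or between the antibody pairs, where 0.0146% were. None of the 6 had an unadjusted p under 0.05 in any of the 3 comparisons. Kcnj8 stood at 25.6, 23.0 and 16.6 TPM in medium, at 12.4, 18.1 and 10.9 TPM with NKp46 and NKG2D antibodies and at 20.4, 14.7 and 8.65 TPM with NKp46 and DNAM-1 antibodies. The log2 differences from medium were -0.63 (95% interval -1.36 to 0.105) and -0.60 (-1.33 to 0.137), with adjusted p of 0.395 and 0.374. With groups taken from the titles, the first of these was -0.03 and the other -0.64.

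Cmah stood at 40.5, 19.8 and 20.7 TPM in medium, at 25.0, 18.5 and 14.3 TPM with NKp46 and NKG2D antibodies and at 25.7, 14.7 and 16.0 TPM with NKp46 and DNAM-1 antibodies. Its log2 differences were -0.43 and -0.47, with adjusted p of 0.572 and 0.503, or -0.73 and -0.78 under the title groups. Cdc42ep1 stood at 6.17, 2.08 and 5.21 TPM in medium, at 0.54, 2.15 and 1.96 TPM with the first pair and at 2.13, 2.90 and 0.57 TPM with the other (log2 differences -1.09 and -0.95, adjusted p of 0.373 and 0.392). Under the groups of the titles they were 0.04 and -0.09. Ptpn5 was at 15.6 to 26.7 TPM in all 9 libraries, with the 3 groups overlapping. Mcrip2 ran from 0 to 8.70 TPM in medium and from 5.68 to 11.0 TPM with NKp46 and DNAM-1 antibodies. Anxa8 reached at most 5.43 TPM. Grouped by column name, a list of handling stress genes summed to 1994 to 2992 TPM in medium and to 472 to 582 TPM with antibodies, without overlap. Its part in these values was not tested.

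Among 95 related genes, Dusp2, which encodes a phosphatase of MAP kinases, was the only one called with NKp46 and NKG2D antibodies. It stood at 669, 605 and 468 TPM in medium, at 223, 236 and 171 TPM with NKp46 and NKG2D antibodies and at 209.8, 190.1 and 156 TPM with NKp46 and DNAM-1 antibodies. Its log2 differences were -1.46 (adjusted p = 0.00395) and -1.64 (adjusted p = 0.00209), and with groups taken from the titles they were -0.07 and -0.44 and not called. With only the compared groups fitted, the call for NKp46 and NKG2D antibodies was lost (adjusted p = 0.0627). Cdc42ep3, a relative of Cdc42ep1, was also called lower with NKp46 and DNAM-1 antibodies, at 42.1 to 44.6 against 77.5 to 128 TPM (-1.14, adjusted p = 0.0297), a call lost without any 1 library of that antibody group and with the groups of the titles. The Cdc42ep3 call was also lost with only the compared groups fitted (limma, adjusted p = 0.119). None of the 95 was called between the antibody pairs, and 0 had an unadjusted p under 0.05 there.

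**Figure D5:**
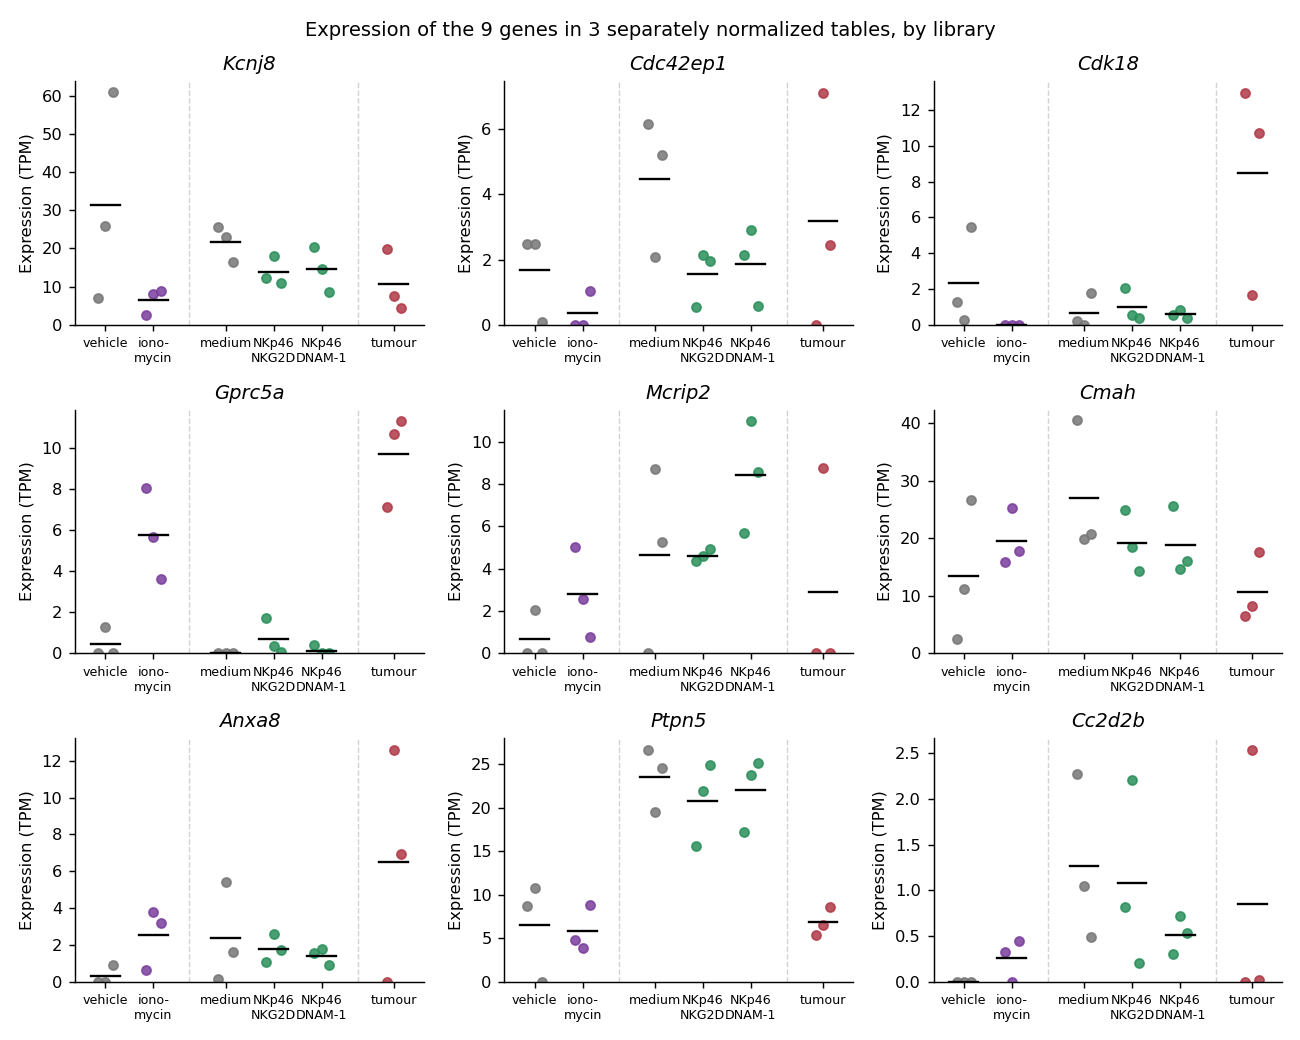
Expression in TPM (y axis, linear, a separate scale for each gene) in the ionomycin, antibody and tumour experiments, set apart by dashed lines because their tables were normalized separately. Each point is 1 library and black bars are means of 3. The vehicle points of Kcnj8 run from 7.09 to 60.9 TPM, and the tumour points of Gprc5a from 7.13 to 11.3 TPM.

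In NK cells from tumours there was no comparison group, so levels are given alone. Kcnj8 stood at 20.0, 7.48 and 4.30 TPM, Cmah at 6.42, 8.18 and 17.5 TPM and Cdk18 at 13.0, 1.67 and 10.7 TPM. Gprc5a was detected in all 3 libraries, at 7.13, 10.7 and 11.3 TPM, and so was Ptpn5, at 5.34, 6.50 and 8.60 TPM. Anxa8 (0, 12.6 and 6.95 TPM), Cdc42ep1 (0, 7.12 and 2.44 TPM), Mcrip2 (0, 8.75 and 0 TPM) and Cc2d2b (0, 2.54 and 0.02 TPM) were listed at 0 in the first library and highest in the second. Fibroblast and pericyte markers, 5 of 8 above 0 and led by Col3a1, summed to 39.0, 1033 and 838 TPM in the same order, and their part in these levels was not tested. Rgs5, Abcc9 and Acta2 of that list were at 0 in all 3 libraries, and the other listed genes, Pdgfrb among them, were above 0 in at least 1.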

How the data were processed

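The authors deposited 4 tables of TPM. Per the submitters' processing notes, STAR, RSEM and GRCm39 were used, and per the labels' protocols total RNA went into a poly(A) library kit. Versions and strand settings are not given in the sources used here. TPM keep no depth, so no counting interval is given, and precision rests on 3 replicates. Groups follow the titles, except in the antibody table, where column names were used. Tumour columns carry the names B2MKO and SP, and the titles were followed.

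The scale was log2(TPM + 1), on which changes of low genes are understated. Genes that averaged 1 TPM or more over a table were fitted with limma 3.58.1 in R 4.3.3 (group means, variance trend), and p-values, two-sided, were adjusted by Benjamini-Hochberg over all genes tested. The fit was tested on simulated data. For 3 libraries against 3, the smallest p of an exact permutation test is 0.1. Intervals are 95% and unadjusted. Tables were never compared with each other. Of 135 related genes in 9 lists (the 9 genes left out), at most the 6 called with the largest change are named for a comparison, and 1 of these is not reported here. The 9 genes and these lists were chosen with earlier results of these data known. Genes at a mean of 1 TPM or more, without predicted genes, entered the search for similar patterns. Alternatives were the pseudocount, filter, scaling, variance trend, samples fitted, replicate block, left-out replicates and, for antibodies, the title groups. In the subset and antibody tables the column names join genotype and library number, so same-numbered libraries may share a mouse. Such libraries did not deviate together in every pair (0 of 18 pairs over a correlation of 0.1 in the subset table, 1 of 3 in the ionomycin and 1 of 9 in the antibody table), which does not exclude pairing. The main fits did not use the numbers as pairs, and the replicate block did.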

Additional observations from a re-analysis of the deposited data

How the results depend on the processing

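In the 5 tested comparisons 0 of the 9 genes were called under every alternative run, and with the replicate block the count was 0 in each. The 26 described differences rerun (TN against TP for all 9 genes, SP against TP for Kcnj8, Cmah, Cdc42ep1 and Anxa8, each in both genotypes) kept their sign; other subset differences were not rerun. Of the tested differences, 23 were rerun (SP cells, ionomycin, and Kcnj8, Cmah and Cdc42ep1 for each antibody pair against medium), and 4 changed sign: Cmah in KO against WT SP cells (-0.0108 after median-of-ratios rescaling, -0.11 to 0.10 without 1 library), Ptpn5 there (-0.69 to 0.36 without 1 library) and with ionomycin (-0.71 to 1.07), and Cdc42ep1 with NKp46 and NKG2D antibodies (0.0436 under the title groups); the cause was not tested. With a pseudocount of 0.1 the WT differences TN minus TP were -6.32 for Cdc42ep1, -5.26 for Mcrip2, -4.48 for Cdk18, -3.66 for Gprc5a, 4.09 for Anxa8, 4.00 for Cc2d2b and 3.32 for Ptpn5, and quantile normalization gave -3.66 for Cdc42ep1 and -1.91 for Gprc5a.

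Counts of related genes called depended on the fit. Without 1 library they ran from 2 to 5 in WT TN against TP, 0 to 1 in KO, 1 to 4 in SP cells, 0 to 8 with ionomycin, 1 to 3 with NKp46 and NKG2D antibodies and 1 to 7 with NKp46 and DNAM-1 antibodies. Under the other settings the ranges were 1 to 6, 1 to 1, 1 to 4, 3 to 11, 0 to 2 and 0 to 6. The replicate block gave 2 and 6 for the antibody pairs, in place of 1 and 2. Depth is unknown, so low values cannot be separated from missed reads.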
